A study of Mus musculus with 38 samples.

Results

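Carboxylesterase transcripts were followed in mouse intestinal epithelial cells before and during experimental colitis. The genes described are Ces1d, Ces1e, Ces1f, Ces1g, Ces2a, Ces2b, Ces2c, Ces2e and Ces2g, which are 9 of the 46078 genes in the count files. They were taken by symbol from a given list that was selected on measured counts of these libraries, among them the day 0 difference of Ces1g between genotypes. A further 11 carboxylesterase genes are in the files and are described as the rest of the family. All 9 members passed the filter on low counts in every comparison.

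The study compared mice lacking Hk2, the gene of hexokinase 2, in the intestinal epithelium with littermate controls during colitis caused by dextran sodium sulfate (DSS), a polymer given in drinking water that injures the colonic epithelium. KO mice carry floxed Hk2 and a Cre recombinase driven by the Villin promoter, which is active in epithelial cells of the gut, and WT mice are Hk2fl/fl littermates in which the same alleles are floxed. The 38 libraries, all of strain C57BL/6, fell into 6 groups: 4 WT and 5 KO libraries of day 0, 7 WT and 8 KO libraries of day 3, and 7 of each genotype on day 7. Single libraries are called by their titles, made of day, genotype and a number. The day counts days of 1.5% DSS, day 0 mice were untreated, and the DSS mice were males aged 10 to 12 weeks kept with both genotypes in the same cages. For untreated mice an age range of 9 to 11 weeks and an older one of 86 to 92 weeks are given, without saying which the day 0 mice had. The sex of the day 0 mice is not given. The samples are labelled as isolated intestinal epithelial cells, whereas the series text speaks of colon tissue.

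Carboxylesterases are serine hydrolases of the endoplasmic reticulum that cleave ester bonds. They split neutral lipids, retinyl esters and ester drugs such as prodrugs, and the liver and the intestinal epithelium are the tissues best known for them. In the mouse the family has expanded by tandem duplication, so the genes lie side by side and resemble each other in sequence. Ces1d, also called triacylglycerol hydrolase, and Ces1f act on stored triglyceride, Ces1g takes part in hepatic and intestinal lipid handling, and Ces1e (egasyn) holds β-glucuronidase in the endoplasmic reticulum. The Ces2 genes encode the forms prominent in the intestine. Among them, Ces2c hydrolyses acylglycerols, and Ces2e is known as a pyrethroid hydrolase.

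All 9 members are on chromosome 8 of GRCm38 and are protein-coding in GENCODE release M21, where their ends are the same as in the files. The Ces1 members lie on the minus strand, from Ces1d (ENSMUSG00000056973, 93166068 to 93197838) through Ces1e (ENSMUSG00000061959, 93201218 to 93229619) and Ces1f (ENSMUSG00000031725, 93256236 to 93279747) to Ces1g (ENSMUSG00000057074, 93302369 to 93337308). The Ces2 members lie 11.4 Mb away on the plus strand: Ces2a (ENSMUSG00000055730, 104734003 to 104741634), Ces2b (ENSMUSG00000050097, 104831572 to 104840093), Ces2c (ENSMUSG00000061825, 104847068 to 104854483), Ces2e (ENSMUSG00000031886, 104926260 to 104934672) and Ces2g (ENSMUSG00000031877, 104961718 to 104969537). Ces2e and Ces2g, the members that changed in opposite directions during DSS, are separated by 27.05 kb, and Ces2f lies between them.

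The bases before the start sites are shown for 5 members to set the neighbours Ces2e and Ces2g, which moved in opposite directions during DSS, beside Ces2a and 2 Ces1 genes. The RefSeq table of GRCm38.p6 promoters held 6 of the 9 members, and each sequence is the 250 bases before a start site, read 5′ to 3′ on the strand of the gene. Positions are chr8:93229620-93229869 for Ces1e and chr8:93337210-93337459 for Ces1g on the minus strand, and chr8:104733753-104734002 for Ces2a, chr8:104926010-104926259 for Ces2e and chr8:104961468-104961717 for Ces2g on the plus strand. The Ces1g start in RefSeq is 99 bases from the start in the files, and the others coincide. Capitals mark TTATGTAA, a D-box as bound by the circadian factors Dbp and Tef, or AACTTTG, the reverse complement of CAAAGTT.

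Ces1e: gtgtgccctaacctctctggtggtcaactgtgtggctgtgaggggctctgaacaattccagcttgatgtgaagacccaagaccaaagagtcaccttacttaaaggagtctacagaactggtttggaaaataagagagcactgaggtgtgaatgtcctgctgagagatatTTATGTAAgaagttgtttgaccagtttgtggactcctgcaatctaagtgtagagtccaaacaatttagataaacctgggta
Ces1g: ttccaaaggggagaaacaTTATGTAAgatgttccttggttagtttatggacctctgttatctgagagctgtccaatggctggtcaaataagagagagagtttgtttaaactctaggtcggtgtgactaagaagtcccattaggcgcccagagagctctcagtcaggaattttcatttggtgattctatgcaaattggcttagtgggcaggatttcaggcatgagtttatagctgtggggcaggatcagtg
Ces2a: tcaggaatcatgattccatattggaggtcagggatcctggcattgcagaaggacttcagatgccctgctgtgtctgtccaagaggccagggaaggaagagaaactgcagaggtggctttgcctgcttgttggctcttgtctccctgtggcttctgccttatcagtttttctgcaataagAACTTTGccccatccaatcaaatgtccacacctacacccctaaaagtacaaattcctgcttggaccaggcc
Ces2e: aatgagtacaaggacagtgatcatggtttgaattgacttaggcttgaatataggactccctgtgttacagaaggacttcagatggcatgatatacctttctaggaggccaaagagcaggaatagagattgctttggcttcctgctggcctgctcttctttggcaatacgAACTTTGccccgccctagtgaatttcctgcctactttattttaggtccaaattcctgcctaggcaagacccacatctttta
Ces2g: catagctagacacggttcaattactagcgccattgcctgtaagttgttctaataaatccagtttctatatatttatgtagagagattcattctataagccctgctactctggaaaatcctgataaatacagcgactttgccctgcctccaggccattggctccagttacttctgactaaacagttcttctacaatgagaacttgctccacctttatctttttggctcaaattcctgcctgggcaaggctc

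TTATGTAA was found in 4 of the 6 Ces1 windows in the table (Ces1e, Ces1g, Ces1a and Ces1c) and in 0 of the 6 Ces2 windows. Over all 32851 windows of 250 bases, 0.819% held it on either strand. CAAAGTT, searched on both strands, was found in 3 of the 6 Ces2 windows (Ces2a, Ces2e and Ces2f) and in 0 of the 6 Ces1 windows, beside 3.31% of all windows. The Ces2g window held neither. ATTGG and TATAAA were searched as well. ATTGG was found in 4 of the 6 Ces2 windows and in those of Ces1g, Ces1a and Ces1c, beside 33.8% of all windows. TATAAA was found in the Ces1g and Ces1h windows, beside 12.4% of all windows. The RefSeq start used for Ces1h is 16101 bases from the start in the files. The longest run shared by the Ces2a and Ces2e windows was 17 bases, and by the Ces2e and Ces2g windows 13 bases. The letters were chosen after these windows had been read, neighbouring copies share their origin, and a match is not a measured binding site.

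Total counts ranged from 10.5 to 60.6 M per library. Hk2 was 247 to 439 CPM (counts scaled to library size with TMM factors) in WT day 0 and 31.2 to 111 CPM in KO day 0, 99.3 to 224 CPM in WT day 3, 231 to 598 CPM in WT day 7 and 56.6 to 260.5 CPM in KO day 7. In KO day 3 it was 70.9 to 131 CPM except in the library labelled d3_KO_345, at 440 CPM, above every WT day 3 library. That library is used under its label, and where stated results are also given without it. The Hk2 ranges of the genotypes overlapped on day 3 even without that library, and they overlapped on day 7. Day 0 libraries carry another prefix in their file names and had more mitochondrial ribosomal RNA, 6.25 to 45.6% of counts against 0.352 to 3.95% later. No label says what the prefix stands for. Untreated state and a difference in how these libraries were made therefore cannot be told apart. The epithelial markers were high throughout (Epcam 1210 to 1947 CPM, the colonocyte enzyme Car1 1777 to 11658 CPM). Of the defining markers of liver and fat, other tissues rich in carboxylesterases, Alb was at most 1.46 CPM and Adipoq at most 0.100 CPM. The summed levels of the 7 hepatocyte markers, 9.64 to 155 CPM, and of the 7 adipocyte markers, 3.05 to 36.1 CPM, came almost wholly from Tat, a tyrosine-degrading enzyme, and from Cidec, a lipid droplet protein. Tat rose from day 3 to day 7 in both genotypes (1.53 in WT and 0.96 in KO) and Cidec in WT (1.10), while Alb, near its detection limit, was called lower in both, and their part in the results below was not tested. Each library title carries its own number, but no label says in words that replicates came from separate animals, so p-values measure the spread between these libraries.

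Per kilobase of exon, the scale on which genes can be compared, Ces2e was the highest member in 5 of the 6 groups. Its level was 72.9 ± 15.4 CPM per kb (SD, n = 4) in WT day 0, 78.4 ± 31.9 (SD, n = 7) in WT day 3 and 123.8 ± 25.4 (SD, n = 7) in WT day 7. In WT day 0 the highest was Ces2a, at 79.6 ± 18.8 CPM per kb (SD, n = 4), and it exceeded Ces2e in 3 of 4 libraries. Ces2a came next to Ces2e in the other 5 groups, at 56.9 to 72.5 CPM per kb.

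Ces2c, Ces1g, Ces1f and Ces1d formed a middle tier whose order shifted between groups and whose neighbours overlapped in most of them. In WT day 3, Ces1g was above Ces2c in 4 of 7 libraries and Ces2c was above Ces1f in 3 of 7, so these ranks do not differ beyond their spread. Ces1e, Ces2g and Ces2b formed the low tier. Ces2g ranked above Ces1e on day 3, in 6 of 7 WT and 6 of 8 KO libraries, and below it in all 4 groups of the other days. Ces2b was the lowest in every group, at 1.76 to 2.68 CPM per kb.

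The summed level of the 9 members was similar across groups, with medians of 298 to 342 CPM per kb and ranges that overlapped. Inside that sum the parts differed. Ces2e made up 23.2 ± 3.4% (SD, n = 7) of the summed members per kb in WT day 3 and 33.6 ± 5.3% (SD, n = 7) in WT day 7. In KO it was 25.8 ± 3.8% (SD, n = 8) on day 3 and 34.0 ± 4.6% (SD, n = 7) on day 7.

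**Figure D1:**
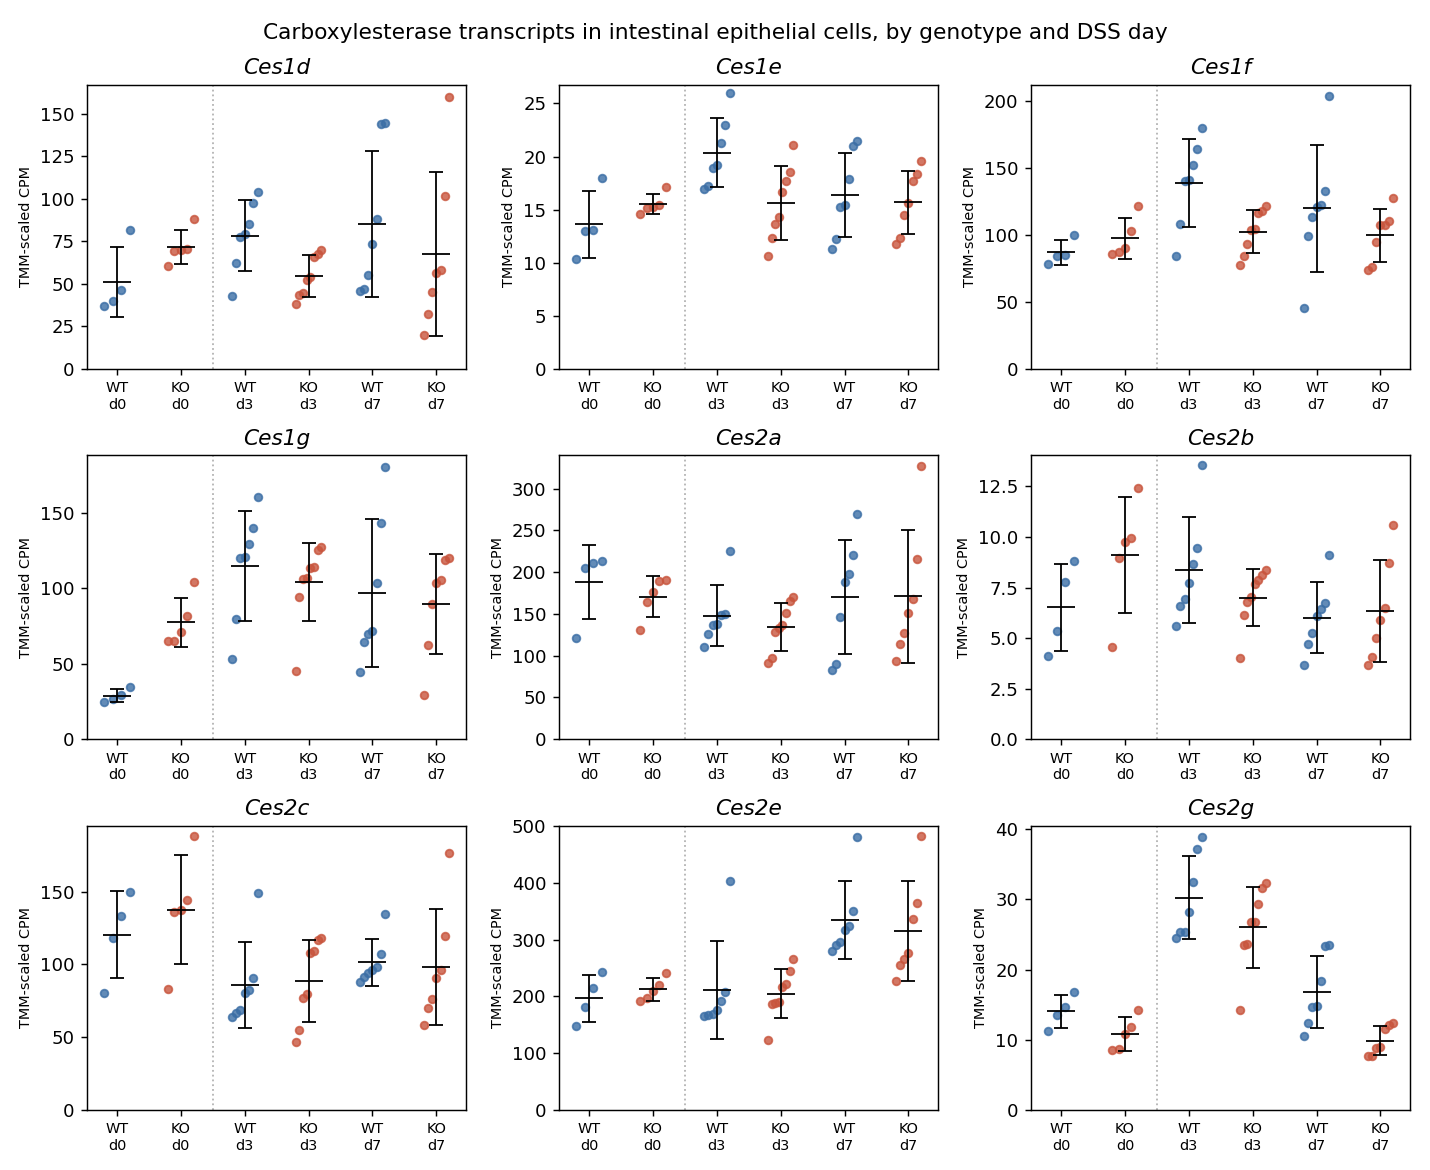
Level of each member (y axis, TMM-scaled CPM from 0) in the 6 groups (x axis); points are libraries, blue WT and red KO, and black bars are mean ± SD. Day 0, left of the dotted line, carries another file name prefix. Ces2g was 24.5 to 38.9 CPM in WT day 3 and 10.6 to 23.5 CPM in WT day 7, while Ces2e moved the other way.

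The comparison of day 7 with day 3, whose libraries share 1 file name prefix, asked how transcripts changed as colitis developed. Ces2e rose and Ces2g fell in both genotypes, and the other 7 members were not called in either. Called genes have a Benjamini-Hochberg adjusted p under 0.05 in edgeR's quasi-likelihood test over all genes. The background was large, with 19.3% of 15541 genes called in WT and 19.3% of 15568 in KO, so 2 of 9 members called in each genotype is close to the share of all genes.

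Ces2g was 24.5 to 38.9 CPM (median 28.2, n = 7) in WT day 3 and 10.6 to 23.5 CPM (median 14.8, n = 7) in WT day 7. In KO it was 14.2 to 32.3 CPM (median 26.8, n = 8) on day 3 and 7.65 to 12.4 CPM (median 8.95, n = 7) on day 7. The days did not overlap in either genotype, which was the case for 4.59% of genes tested in WT and 5.11% in KO. The log2 fold change was -0.83 (SE 0.18, edgeR adjusted p 0.0043) in WT and -1.40 (SE 0.16, edgeR adjusted p 4.11e-05) in KO. Leaving out any single library kept the call in each genotype, and without the library labelled d3_KO_345 the KO value was -1.39 (edgeR adjusted p 4.37e-05).

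Ces2e was 165 to 404 CPM (median 175, n = 7) in WT day 3 and 280 to 480 CPM (median 318, n = 7) in WT day 7. The overlap came from d3_WT_381 alone, as the other 6 WT day 3 libraries were at most 207 CPM. In that library 41.7% of counts were from the mitochondrial genome, against 6.25 to 16.95% in the other WT day 3 libraries, and it had the fewest counts (26.7 M) and detected genes (19084) of that group and the highest sum of small intestine markers (101 CPM, others at most 53.1 CPM). In KO, Ces2e was 124 to 266 CPM (median 203, n = 8) on day 3 and 228 to 482 CPM (median 276, n = 7) on day 7, and the days overlapped. The log2 fold change was 0.67 (SE 0.20, edgeR adjusted p 0.0281) in WT and 0.63 (SE 0.17, edgeR adjusted p 0.0143) in KO. In WT the call ended, with an adjusted p of 0.0502 to 0.0626, when any of d3_WT_346, d3_WT_348, d3_WT_352, d3_WT_353, d3_WT_486 and d3_WT_487 or d7_WT_431 was left out, and without d3_WT_381 the value was 0.90. In KO it held without each library.

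Since both genes are measured in the same library, their ratio does not depend on scaling. The 2 genes were set together because they moved in opposite directions between these days, so the ratio is a description and no further support. Ces2e counts were 4.36 to 16.0 times those of Ces2g in WT day 3 (median 5.93) and 14.9 to 30.1 times in WT day 7 (median 19.9), with d3_WT_381 again the only WT day 3 library inside the day 7 range. In KO the ratio was 3.90 to 18.7 (median 7.46) on day 3 and 21.2 to 47.5 (median 30.8) on day 7. The Ces2e to Ces2c ratio, given without a test, went from 2.47 ± 0.40 (SD, n = 7) to 3.28 ± 0.21 (SD, n = 7) in WT and from 2.41 ± 0.47 (SD, n = 8) to 3.33 ± 0.41 (SD, n = 7) in KO. Ces2c itself was not called, with log2 fold changes of 0.25 (edgeR adjusted p 0.341) in WT and 0.15 (edgeR adjusted p 0.737) in KO.

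**Figure D2:**
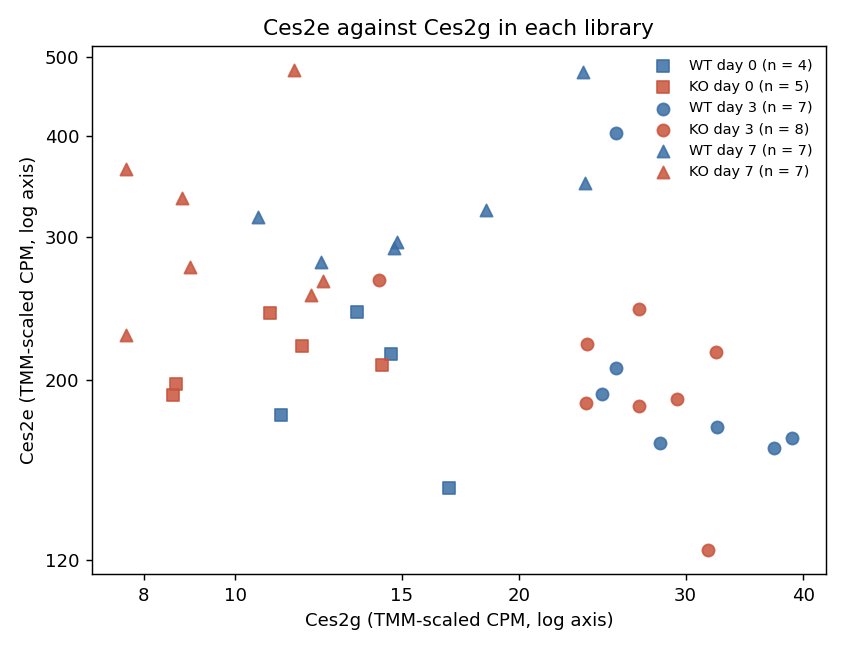
Ces2e (y axis) against Ces2g (x axis) in each of the 38 libraries, both as TMM-scaled CPM on log axes; colour gives genotype and shape gives day. Day 7 triangles lie up and to the left of most day 3 circles, and the WT circle at 404 CPM of Ces2e is d3_WT_381.

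The other 7 members had log2 fold changes of -0.46 to 0.25 in WT and of -0.21 to 0.35 in KO. Ces2b, the least abundant member, had the lowest value in WT, at -0.46 (SE 0.21, edgeR adjusted p 0.148). Ces1g was 53.4 to 160 CPM (median 121, n = 7) in WT day 3 and 44.4 to 180 CPM (median 72.0, n = 7) in WT day 7, and its groups overlapped over nearly their whole range. Ces1d spread most on day 7, from 45.5 to 145 CPM in WT and from 19.8 to 160 CPM in KO, against 42.8 to 104 CPM and 38.2 to 69.8 CPM on day 3. The median log2 fold change of the 9 members was -0.20 in WT and 0.01 in KO, beside 0.01 and -0.01 over all genes tested.

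Genes that mark the distal colon, the small intestine and immune cells moved between the same days. Their part in the Ces2e and Ces2g changes was not tested. All 6 tested genes of the distal position list (Hoxa13, Hoxb13, Hoxd10, Hoxd11, Hoxd12 and Hoxd13) fell in both genotypes. The summed level of the list was 121 to 452 CPM in WT day 3 and 22.4 to 156 CPM in WT day 7, and 106 to 364 CPM in KO day 3 and 12.1 to 85.7 CPM in KO day 7. Hoxd13, which patterns the hindmost gut, was 1.31 to 61.9 CPM in WT day 3 and 2.01 to 16.2 CPM in WT day 7. Of the 12 small intestine markers 7 were tested, and 7 in WT and 6 in KO had positive values, with medians of 0.74 and 0.77. Those called were Slc10a2 (1.87), the ileal bile acid transporter, and Alpi (1.33), an intestinal phosphatase, in WT and Gata4 (1.42) in KO. Their summed level was 35.6 to 101 CPM in WT day 3 and 66.0 to 161 CPM in WT day 7, and 30.003 to 101 CPM in KO day 3 and 51.5 to 263 CPM in KO day 7. Of the 10 immune cell markers, 9 rose in WT and 10 in KO, and their summed level went from 14.8 to 41.5 CPM in WT day 3 to 132 to 926 CPM in WT day 7.

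Adding list scores to the model ended calls, but a score that follows the day cannot be separated from the day by such fits. The immune score was -1.04 to 0.11 in WT day 3 and 2.19 to 4.77 in WT day 7. In KO it was -0.24 to 2.23 and 2.41 to 4.55. The position score was 2.27 to 4.23 in KO day 3 and -1.46 to 1.39 in KO day 7. These ranges did not overlap, while those of the position score in WT and of the small intestine score did. The values are given as a description. With the distal position score, a covariate chosen after the data were seen, Ces2g stood at -0.46 in WT and -0.84 in KO and Ces2e at 0.61 and 0.10, and 0 members were called in either genotype. With the immune score, 0 members were called as well. The Ces2g value in WT changed sign to 0.09 and was -1.11 in KO (SE 0.37, edgeR adjusted p 0.516), while Ces2e stood higher in WT, at 1.32 (SE 0.55, edgeR adjusted p 0.158), and at 0.09 in KO. With the small intestine score, Ces2e stood at 0.06 in WT and 0.31 in KO and was called in neither. Ces2g then stood at -0.92 in WT (SE 0.29, edgeR adjusted p 0.104), no smaller than without the score but not called, and was called in KO (-1.43). Over the whole table, 0 genes in WT and 4 in KO were called with the immune score, 818 and 3 with the position score, and 420 and 2427 with the small intestine score, against 3002 and 3008 without a covariate.

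Within a day, the correlation of Ces2g with the position score was positive on both days, though it did not pass adjustment. With genotype means removed, the correlation of Ces2g (log2 CPM) with the score was r = 0.56 (rho = 0.61, n = 15) on day 3 and r = 0.64 (rho = 0.66, n = 14) on day 7. The permutation p values were 0.0141 and 0.0233 for r and 0.0198 and 0.02 for rho, and the adjusted values over 8 relations were 0.0932 for r and 0.08 for rho on both days, so neither passed. Without the 2 libraries farthest from the median score, r was 0.58 and 0.73. For Ces2e, r was -0.35 on day 3 (rho = -0.52) and -0.04 on day 7 (rho = -0.04), with permutation p values adjusted over the 8 relations of 0.444 and 0.887 for r and 0.137 and 0.895 for rho. Without the 2 farthest libraries it was -0.48 and 0.16. Ces2g with the inflammation score gave r = -0.28 (rho = -0.375) on day 3 and r = -0.41 (rho = -0.36) on day 7, adjusted permutation p 0.457 and 0.444 for r and 0.284 and 0.293 for rho. Without the library labelled d3_KO_345 the day 3 value was r = -0.48, and without the 2 farthest libraries r was -0.43 and -0.69. For Ces2e with the inflammation score, r was 0.15 (rho = 0.20) on day 3 and 0.30 (rho = 0.45) on day 7, adjusted permutation p 0.655 and 0.457 for r and 0.549 and 0.247 for rho. Without d3_KO_345 the day 3 value was r = 0.29, and without the 2 farthest libraries r was 0.37 and 0.18.

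**Figure D3:**
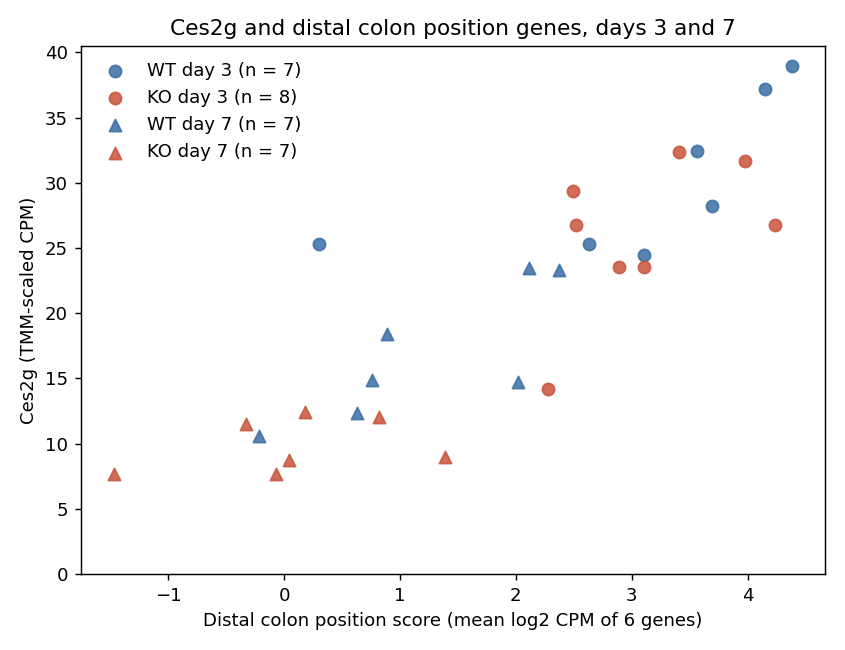
Ces2g (y axis, TMM-scaled CPM) against the distal colon position score (x axis, mean log2 CPM of 6 genes) in the 29 libraries of days 3 and 7; colour gives genotype and shape gives day. The correlation was positive on each day, with r = 0.56 on day 3 and r = 0.64 on day 7 after genotype means were removed.

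The genotype comparison before DSS held a difference of Ces1g that was known beforehand. It was used when the members were chosen and is given without a test. Ces1g was 24.9, 27.02, 29.3 and 34.6 CPM in the 4 WT day 0 libraries and 65.3, 65.3, 71.3, 81.7 and 104 CPM in the 5 KO day 0 libraries. The groups did not overlap, as for 3.68% of the 14944 genes tested (0.0335% were called), and the log2 difference was 1.45. Against Ces1f, whose gene lies 22.6 kb away, Ces1g counts were 0.270 to 0.445 times as many in WT and 0.727 to 0.859 times as many in KO.

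The other 8 members overlapped between genotypes on day 0, with log2 differences of -0.34 for Ces2g to 0.52 for Ces1d and Ces2b. Ces1d was 36.8, 40.1, 46.1 and 81.5 CPM in WT and 60.6, 69.0, 70.0, 70.4 and 87.7 CPM in KO. The highest value of each group belonged to d0_WT_31 and d0_KO_32, the libraries with Xist, the transcript that silences an X chromosome in female cells, at 412 and 454 CPM. Ces1e was also highest there, at 17.98 and 17.2 CPM, against 10.3 to 13.1 CPM in the other WT and 14.6 to 15.4 CPM in the other KO day 0 libraries. Both libraries also had the highest mitochondrial genome share of their groups. It was 18.8% of counts in d0_WT_31 (others 9.75 to 15.9%) and 61.7% in d0_KO_32 (others 9.15 to 17.5%). Which of these traits goes with the Ces1d and Ces1e levels was not tested. With all day 0 libraries Ces1d was not called (edgeR adjusted p 0.432). Without these libraries its log2 difference was 0.76 and it was called (edgeR adjusted p 0.00765). Without single day 0 libraries the difference was 0.39 to 0.83, and Ces1d was called in 1 of 9 fits. The share of all genes called was then 3.73%, against 0.0335% with all day 0 libraries. Xist was at most 0.141 CPM in the 4 later groups. These comparisons rest on 1 library in each genotype.

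Under DSS no member was called between genotypes. Hk2 was not called either, at -0.27 on the log2 scale on day 3 and -1.25 on day 7. On day 3, 0.00647% of the 15461 genes tested (1 gene) were called, and on day 7, 0.00642% of 15584 (1 gene). At an unadjusted p under 0.05, 3 members were lower in KO on day 3 beside 7.88% of all genes, and 1 on day 7 beside 12.9%. The DESeq2 Wald test called 0 members on day 3, beside 0.0129% of all genes, and 1 on day 7, beside 0.533%.

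The 3 on day 3 were the Ces1 members other than Ces1g. Ces1d was 42.8 to 104 CPM (median 79.0, n = 7) in WT and 38.2 to 69.8 CPM (median 53.1, n = 8) in KO, so that KO stood at -0.53 on the log2 scale (SE 0.18, edgeR adjusted p 0.623). Ces1f was 83.8 to 179 CPM (median 141) in WT and 77.6 to 121 CPM (median 104) in KO, which is -0.44 on the log2 scale (SE 0.15, edgeR adjusted p 0.623). Ces1e stood at -0.39 (SE 0.14, edgeR adjusted p 0.623). The groups overlapped for each gene. Ces1g, at -0.15 on day 3 (SE 0.22, edgeR adjusted p 0.843) and -0.11 on day 7 (SE 0.33, edgeR adjusted p 0.898), overlapped between the genotypes on both days. Without the library labelled d3_KO_345, the day 3 values were -0.48 for Ces1d, -0.39 for Ces1f and -0.03 for Ces1g. None of these was called (edgeR adjusted p 0.770, 0.770 and 0.975).

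Ces2g was lower in KO than in WT on day 7 in most libraries, at 7.65 to 12.4 CPM (median 8.95, n = 7) against 10.6 to 23.5 CPM (median 14.8, n = 7). The difference of -0.77 (SE 0.19, edgeR adjusted p 0.291) was not called. With DESeq2 it was called (adjusted p 0.026), and also at the threshold in a fit of all libraries (edgeR adjusted p 0.05). The distal position genes also had lower medians in KO on day 7, Hoxb13 at 22.4 against 39.8 CPM and Hoxd13 at 1.68 against 3.33 CPM, and their part in the Ces2g difference was not tested.

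**Figure D4:**
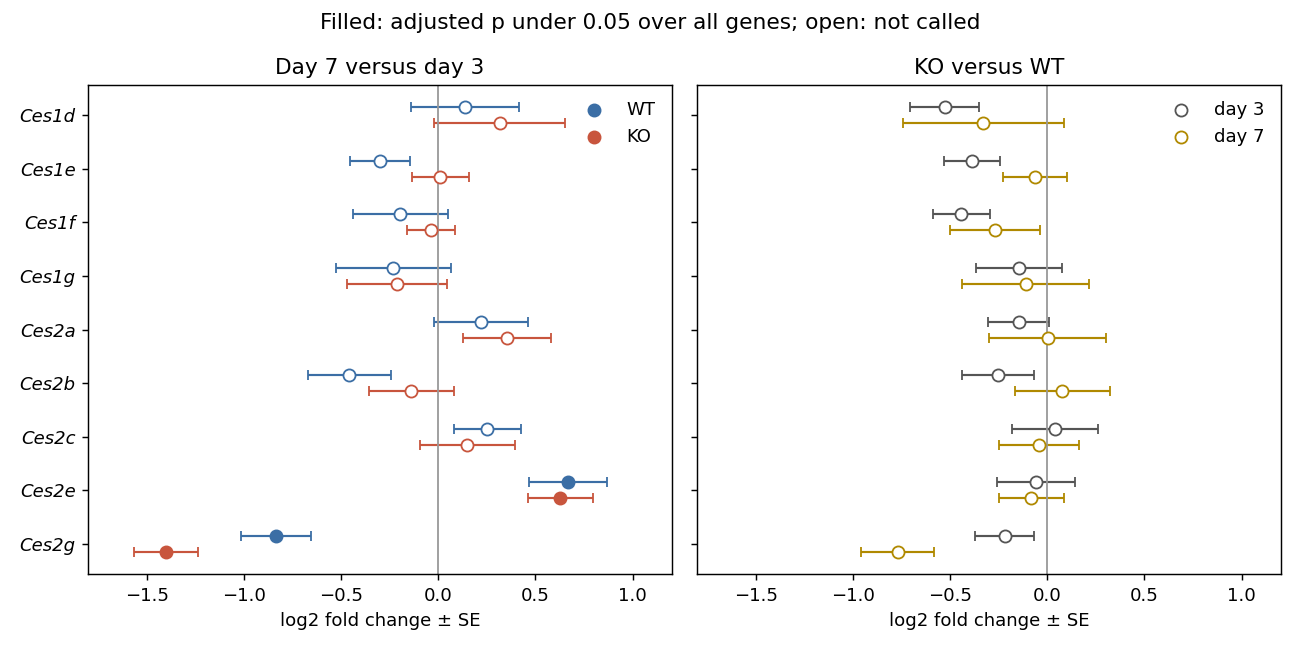
Log2 fold change ± SE (x axis) of each member (y axis) for day 7 against day 3 in each genotype (left) and KO against WT on each DSS day (right). Filled points have an adjusted p under 0.05 over all genes; they are Ces2e (0.67 and 0.63) and Ces2g (-0.83 and -1.40) on the left and none on the right.

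Whether the KO minus WT difference shifted with the day was fitted as an interaction, in which no member was called. In the interactions with day 0, 0% of all genes were called for day 3 and 0.00531% for day 7. For Ces1g both hold the day 0 difference used in choosing the members, so its values of -1.62 for day 3 and -1.53 for day 7 are given without a test. For Ces2g the difference changed by -0.55 from day 3 to day 7 (SE 0.25, edgeR adjusted p 1), where 0% of 16371 genes were called. At an unadjusted p under 0.05 the counts were 4 and 0 of the other 8 members for the interactions of day 3 and day 7 with day 0, beside 13.5% and 13.5% of all genes, and 1 of 9 for that of day 7 with day 3, beside 2.69%.

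Against day 0 a large share of all genes was called. Treatment cannot be told apart there from a difference in how the libraries were made, or from age and sex. The DSS mice were young males, while the sex and age of the day 0 mice are not stated. Xist was high in d0_WT_31 and d0_KO_32. The WT day 0 values of Ces1g are part of the difference used in choosing the members, so its values against day 0 are given without a test: 1.89 on day 3 and 1.66 on day 7 in WT, and 0.30 and 0.09 in KO. For WT, 46% of 17152 genes passed on day 3, and of the other 8 members 4 were among the calls: Ces2g (1.02), Ces1f (0.58) and Ces1e (0.49) higher and Ces2c (-0.58) lower. In KO, 46.3% of 16010 genes and 5 of the other 8 members were called, with Ces2g (1.15) higher and Ces2c (-0.76), Ces1d (-0.52), Ces2b (-0.52) and Ces2a (-0.47) lower. The Ces2g call in WT and those of Ces1d, Ces2a and Ces2g in KO held without each day 0 library. In WT the Ces1e call ended without d0_WT_41, d0_WT_43 or d0_WT_46 (edgeR adjusted p 0.0619 to 0.074), the Ces2c call without d0_WT_31, d0_WT_41 or d0_WT_46 (0.0941 to 0.165) and the Ces1f call without d0_WT_46 (0.068). In KO the Ces2b call ended without d0_KO_24, d0_KO_53, d0_KO_54 or d0_KO_60 or the library labelled d3_KO_345 (0.0556 to 0.181), and the Ces2c call without d0_KO_60 (0.0505). Ces2g stood higher on day 3 than on day 0 and on day 7 in both genotypes.

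On day 7, 56.9% of 17428 genes in WT and 54.6% of 16367 in KO were called against day 0. Ces2e was higher in both, at 0.69 (SE 0.17, edgeR adjusted p 0.00325) in WT and 0.46 (SE 0.17, edgeR adjusted p 0.0326) in KO. Ces2g was not called as different from day 0, at 0.19 in WT and -0.25 in KO (edgeR adjusted p 0.483 and 0.243). The KO call of Ces2e ended without d0_KO_53 (edgeR adjusted p 0.0702) or d0_KO_54 (0.0738), with a mean of 1 CPM as the filter (0.0501) and with lane 1 alone (0.0558).

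The rest of the family was barely detected. Ces1a, Ces4a and Ces5a had at most 2 counts in any library, and the 11 genes together took 0.119 to 0.743% of the family's CPM. Ces2f, the gene between Ces2e and Ces2g, was 0.257 to 0.816 CPM in WT day 3 and 0.346 to 2.37 CPM in WT day 7, a rise of 1.18 on the log2 scale (SE 0.39, edgeR adjusted p 0.0417), and in KO its value was 0.89 (SE 0.50, edgeR adjusted p 0.245). Ces1b fell in KO, from 0.189 to 1.88 CPM on day 3 to 0.104 to 0.433 CPM on day 7 (-1.49, SE 0.47, edgeR adjusted p 0.0357). The Ces2f call ended without any of d3_WT_346, d3_WT_348, d3_WT_352, d3_WT_353 and d3_WT_487 or d7_WT_356, d7_WT_393 and d7_WT_431 (edgeR adjusted p 0.0578 to 0.11). The Ces1b call ended without any of d3_KO_349, d3_KO_350 and d3_KO_351 or d7_KO_367, d7_KO_368, d7_KO_420, d7_KO_421 and d7_KO_423 (0.0569 to 0.0876).

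Sequence shared between copies bears on how well each member was counted. Of all distinct 50-base runs in its transcripts, Ces2c shared 36.1% with other genes, mostly with the pseudogene Ces2d-ps, which itself had at most 1.77 CPM. Ces2a shared 17.3%, mostly with Gm7208, and Ces2b 9.66%. The other 6 members shared 0.903 to 3.30%, with Ces2g at 3.12% and Ces2e at 3.30%. Levels of Ces2c and Ces2a are therefore uncertain to the extent that reads in shared stretches were not counted or were counted elsewhere, and the same holds for their rank per kilobase.

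Genes that work beside carboxylesterases were taken as lists. Of 12 other hydrolases of neutral lipids, 11 were tested in WT and 3 rose from day 3 to day 7, Mgll (0.63), Lipa (0.55) and Ddhd2 (0.41). In KO 12 were tested, Abhd6 (0.37) rose and Abhd5 (-0.39), a coactivator of triglyceride lipase, fell. Of 12 genes that make or package lipid esters, 6 rose and 1 fell in WT, and 4 rose and 1 fell in KO. Dgat2, which makes triglyceride, rose by 1.27 in WT and 0.87 in KO, and of the cholesterol esterifying enzymes Soat2 rose (1.44 and 1.04) while Soat1 fell (-0.96 and -0.93).

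Of 16 transcription factors linked to carboxylesterase genes, 15 were tested. The bile acid receptor Nr1h4 rose in WT (1.22, edgeR adjusted p 9.46e-05) and in KO (1.05, edgeR adjusted p 0.000363). In WT Ppard fell (-0.39), and in KO Cebpa, Ppara, Pparg and Rxra were among those that rose, by 0.23 to 0.49, and Nr1i3 fell (-1.06). Of 40 other xenobiotic enzymes and transporters, 35 were tested, 9 rose and 3 fell in WT, and 6 rose and 2 fell in KO. Cyp2c66 (2.26 and 1.84) and Ugt1a1 (1.21 and 1.14) rose in both, and Cyp2c68 (-2.16 and -3.05) fell in both. Each share is to be read beside the 19.3% of all genes called.

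Ces2c with Ces2e, Ces1f with Ces1g and Ces2a with Ces2c were correlated from library to library on both days. Pairs within a subfamily were not compared with pairs across them by a test. After genotype means were removed, Ces2c and Ces2e gave r = 0.84 (rho = 0.76) over the 15 day 3 libraries and r = 0.95 (rho = 0.93) over the 14 day 7 libraries. The permutation p values adjusted over 72 relations were 0.00768 for r and 0.018 for rho on day 3 and 0.00072 and 0.00288 on day 7. Ces1f and Ces1g gave r = 0.82 (rho = 0.71) on day 3 and r = 0.73 (rho = 0.83) on day 7, with adjusted permutation p of 0.00854 and 0.00954 for r and 0.0359 and 0.013 for rho. Ces2a and Ces2c gave r = 0.94 on day 3 and 0.68 on day 7. Without the 2 libraries farthest from the median of the first gene, r stayed between 0.61 and 0.91 for these pairs.

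On each day 36 pairs were compared. On day 3, 9 pairs had an adjusted permutation p of r under 0.05, and 8 of them were positive and lay within a subfamily. The remaining pair was Ces1f with Ces2g, at r = -0.67 (rho = -0.72, adjusted permutation p 0.0192 for r and 0.0359 for rho). On day 7, 5 pairs passed by r, and besides the pairs above these were Ces1d with Ces2c (r = 0.83, rho = 0.69) and Ces1d with Ces2e (r = 0.77, rho = 0.55). For these pairs r was 0.64 and 0.56 without the 2 farthest libraries, and rho missed the threshold (adjusted permutation p 0.0611 and 0.163), as it did for Ces1d with Ces1f on day 3 (0.0604). No pair of Ces2g with another Ces2 member passed on either day. The libraries share depth and cell composition, which such a correlation does not separate.

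**Figure D5:**
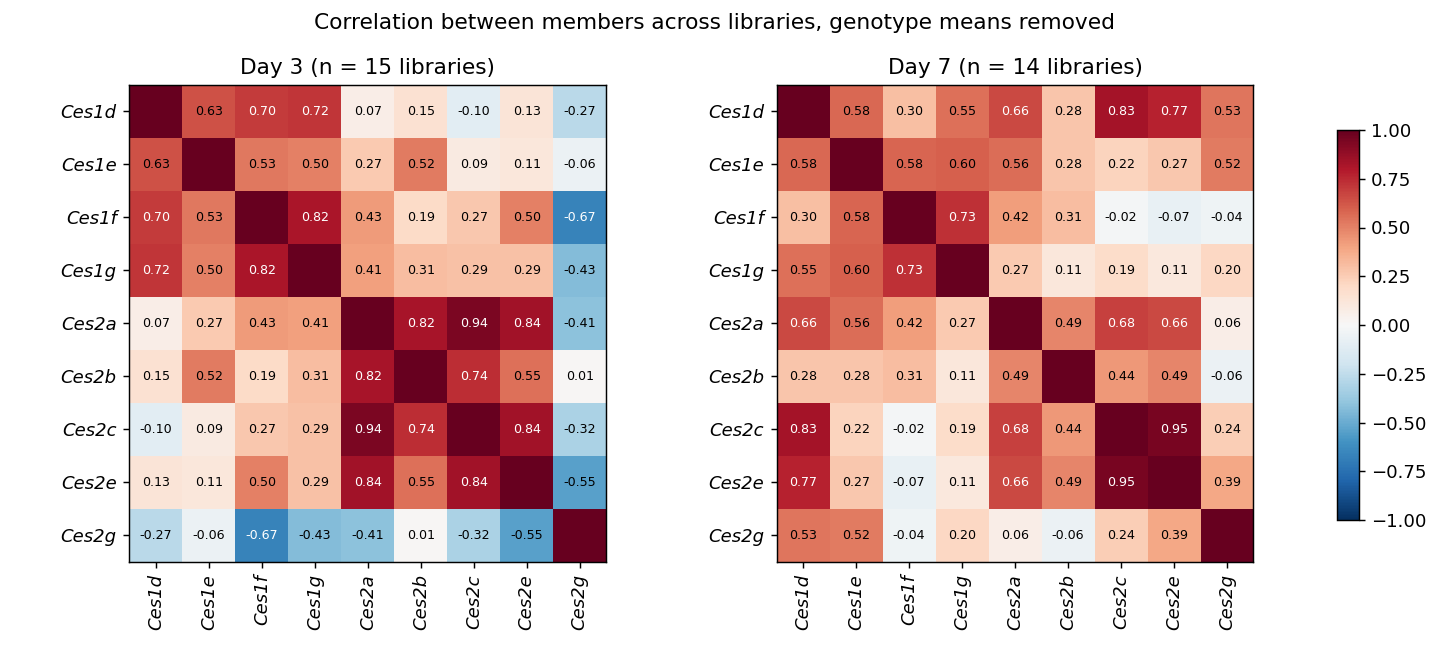
Pearson correlation (colour and number) of log2 CPM between each pair of members across the libraries of day 3 (left) and day 7 (right), after the mean of each genotype was removed. Ces2c had high values with Ces2a and with Ces2e on both days, and on day 7 also with Ces1d. The Ces2g row is near 0 or negative on day 3.

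The genes most like each member over the 29 libraries of days 3 and 7, by Pearson correlation of deviations from group means among 10561 genes, are given as a description. For Ces2e they were Abcg2, a drug efflux pump (r = 0.93), 1810065E05Rik (0.93) and Rfk, riboflavin kinase (0.92). For Ces2c they were Slc9a2, a sodium-proton exchanger (0.88), Chp1 (0.88) and Hsd17b11 (0.86). For Ces2a they were Rbp2, which binds retinol in enterocytes (0.85), Sepp1, selenoprotein P (0.84) and Plgrkt (0.80), and Rbp2 is on the small intestine list. For Ces2g they were Wfdc2 (0.84), Sytl1 (0.83) and Slc8b1 (0.83), and for Ces2b Gm21885 (0.84), Ankra2 (0.76) and Espn (0.76).

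Among the Ces1 members, Ces1g was most like Vsig2 (r = 0.82), Pisd (0.80) and the glucuronosyltransferase Ugt1a7c (0.79). For Ces1f they were Pisd (0.86), Mycbpap (0.84) and Sct, the gene of secretin (0.83). For Ces1d they were Cyp4b1 (0.88), Adh5 (0.87) and Fgfrl1 (0.84), and for Ces1e Nit2 (0.84), Rnase4 (0.83) and Bphl, itself a hydrolase (0.82). Without the library labelled d3_KO_345, 3 of the 3 genes were the same for Ces1d and Ces2e, 2 of 3 for Ces1f, Ces1g, Ces2a and Ces2g, and 1 of 3 for Ces1e, Ces2b and Ces2c. In bulk libraries, fewer cells of a type and less RNA per cell cannot be told apart for any of these levels.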

How the data were processed

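RNA from intestinal epithelial cells was sequenced as stranded paired-end libraries with reads of 50 bases, per the labels' protocols. The deposited values are raw counts per gene and lane, made by the authors with featureCounts 1.6.2 per the file headers, where the submitters' processing notes name version 1.5.2, Trim Galore, STAR and GRCm38. How reads matching several genes were treated bears on Ces2c and Ces2a. The counts of 2 lanes were summed per library, giving 10.5 to 60.6 M.

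Each comparison used the libraries of its groups in edgeR 4.0.16 (R 4.3.3) with TMM scaling, filterByExpr and the quasi-likelihood test, adjusted by Benjamini-Hochberg over all genes tested, with a threshold of 0.05. The interactions used 4 groups. DESeq2 1.42.0, other scalings, filters, lane 1 alone, covariates and leaving out libraries were alternatives. The fits were tested on simulated data. Correlations used 100000 permutations within genotype. Levels are TMM-scaled CPM, and log2 values for correlations used a prior count of 2.

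The members, the gene lists and the comparisons were chosen with earlier results of these data known. Genes named are the 9 members, the other carboxylesterases, list genes that passed the test or serve as markers, and the 3 genes most like each member. Motif letters were chosen after the promoters were read. Promoters are from RefSeq, and gene models for shared sequence are from GENCODE M21. Of the listed transcription factors, 1 is counted but neither named nor given with values here.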

Additional observations from a re-analysis of the deposited data

Results flagged for a closer look

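In 9 of the 54 groups of member values, 1 library lay far from the others, judged by its gap to the nearest library as a share of the group's whole range on the log2 CPM scale. Chance alone marks about 1 in 20 groups. d3_WT_381 was the highest of 7 for Ces2e (404 CPM, others at most 207 CPM, gap 0.745 of the range), Ces2c (149 CPM, gap 0.586) and Ces2a (225 CPM, gap 0.572). The library labelled d3_KO_345, whose Hk2 goes against its label, was the lowest of 8 for Ces1g (45.4 CPM, others at least 94.5 CPM, gap 0.709) and Ces2b (3.99 CPM, gap 0.583).

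The remaining libraries stood apart for 1 member each. Ces2a was 122 CPM in d0_WT_43, the lowest of 4 (gap 0.920). Ces2e was 124 CPM in d3_KO_351, the lowest of 8 (gap 0.534), and 480 CPM in d7_WT_431, the highest of 7 (gap 0.588). Ces2g was 14.2 CPM in d3_KO_387, the lowest of 8 (gap 0.612).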

How the results depend on the processing

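Counts of called members moved with covariates, with the libraries in the fit and with the tool. Against day 0 they include Ces1g, whose day 0 values were used in choosing the members, so its share in them is a description. For KO against WT on day 0 the 1 member counted was Ces1g, whose difference was used in the choice and is no test result. The count was 0 with the small intestine score (1 of all genes) and 0 in a fit of all libraries (4 of all genes). It was 3 without the libraries with Xist (565 of all genes) and 0 to 2 without single libraries. On day 7 the count was 0, and 1 by DESeq2 and in the fit of all libraries, beside 83 and 38 of all genes. For WT day 7 against day 3 the count of 2 became 0 with the immune, small intestine or distal position score. All genes called were then 0, 420 and 818, against 3002 in the main fit. Without single libraries the count of members was 1 to 3, and over all settings tried 0 to 27.5% of all genes were called. In KO the count became 0 with the immune or position score, beside 4 and 3 of all genes. It became 1 with the small intestine score, beside 2427 of all genes, and stayed 2 without each library. For day 3 against day 0 the count of 5 was 2 to 5 in WT and 3 to 5 in KO without single libraries. In KO it was 2 with the immune score, the small intestine score or all libraries in the fit. Over all settings tried, 35.3 to 51.0% of all genes were called in WT and 26.1 to 49.5% in KO. For day 7 against day 0 the WT count of 2 became 0 with the immune score and 2 to 3 without single libraries. Over all settings tried, 8.92 to 62.5% of all genes were called in WT, the lowest share with the immune score. The KO count of 1 became 3 by DESeq2, with all libraries or without the libraries with Xist. All genes called were then 9244, 11084 and 9714, against 8938 in the main fit. The count became 0 with lane 1 alone, a filter on 1 CPM in the mean or the immune score, beside 7461, 7136 and 330 of all genes. Without single libraries it was 0 to 3, and over all settings tried 2.02 to 57.9% of all genes were called. By DESeq2, 94 of all genes were called in the interaction of day 3 with day 0 and 174 in that of day 7. Of the members other than Ces1g, none was among them. The cause of these shifts was not tested.

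Over all genes, KO against WT on day 0 gave 5 calls in edgeR, 177 by DESeq2, 52 without a filter and 565 without the libraries with Xist. Directions that changed, all in log2 units, were those with the immune score for Ces1g in KO against WT on day 3 (0.0429), Ces2g in WT (0.0929) and Ces1b in KO (1.32) between days 7 and 3, Ces2e (-0.42) and Ces1b (0.43) in KO between days 7 and 0, and the Ces1g interaction of days 7 and 3 (-0.0436, and -0.0754 without d3_KO_345). Without single libraries, Ces1g in KO against WT on day 7 ranged from -0.24 to 0.12. No paired analysis was possible because the groups share no replicate numbers. Depth limits the rest of the family, most of which had few counts.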
